A study of Oryza sativa with 18 samples.

Results

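The regions described here are short stretches of the rice genome that carried more DNA methylation in coleoptiles grown without oxygen than in coleoptiles grown in air, and whose level after 3 d without oxygen and 1 d of air stood nearer to the level in air. They were picked from the 2131 regions that the authors had listed for 4 d air against 4 d nitrogen, called the oxygen table here. A group level was the mean percent of methylated reads over libraries with 10 or more reads in the region. A region was kept where the air level was 20% or more, the nitrogen level stood 10 or more percentage points above it, and the re-aerated level had covered more than 65% of the distance from nitrogen to air. This gave 388 regions, called returning regions here, which is 18.2% of the oxygen table. A further 1461 regions met the same limits on the air level and the gap but had closed at most 65% of it, and they are called less-returned regions. No coleoptiles taken at 3 d in nitrogen, before the switch to air, were analysed here. The words returning and gap closed therefore only place the re-aerated level between the 4 d nitrogen and 4 d air levels, and a change during the 1 d of air was not measured.

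All plants were wild-type Oryza sativa cv Amaroo, germinated in the dark at 30 °C in a buffered salt solution bubbled with gas. The compared groups were coleoptiles after 4 d in nitrogen, coleoptiles after 3 d in nitrogen and then 1 d in air (re-aeration), and coleoptiles after 4 d in air, with 3 MethylC-seq libraries each. Embryos after 24 h in nitrogen, after 24 h in air and from the dry seed, also with 3 libraries each, are used only where a region of another table lies near. Under aerobic conditions the primary leaf was cut away before harvest, which the labels do not mention for nitrogen, so gas and dissection cannot be told apart. The labels do not say whether this dissection covered the re-aerated coleoptiles. In whole coleoptiles, a change in the mix of cells and a change within cells cannot be told apart either. The labels do not say that libraries of a group came from separate cultures, so the spread between libraries may be technical.

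The coleoptile is a sheath that encloses the shoot of the seedling, and rice is known for elongating it under water without oxygen, largely by cell expansion. Plants methylate cytosine in the CG, CHG and CHH contexts (H is any base but G). Methylation is laid down anew by DRM-type methyltransferases guided by small RNAs, and in CG it is copied after replication by MET1. In the other contexts chromomethylases take part in its upkeep. Methylation is lost when its upkeep lags behind replication, or when DNA glycosylases of the DME/ROS1 family cut the methylated base out. The deposited column names carry the context CG, whereas the names given to the region sets carry CNN, so it is unsettled which context was counted. No source used here names the genome build. Positions are therefore printed as deposited, and neither genes nor sequences are tied to them.

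The 3 group levels were used to choose the regions and are therefore given as a description. Over the 388 returning regions, the mean level was 71.2%, 72.0% and 71.3% in the 3 nitrogen libraries. It was 47.96%, 47.4% and 48.2% in the re-aeration libraries, and 44.1%, 38.7% and 39.2% in the air libraries. The 3 groups did not overlap in these means, and the re-aerated libraries stood much nearer to air than to nitrogen. The group means were 71.5% ± 0.397 in nitrogen, 47.8% ± 0.394 after re-aeration and 40.7% ± 3.01 in air (SD, n = 3 each). Over the 1461 less-returned regions they were 73.7% ± 0.410, 60.1% ± 0.386 and 40.8% ± 2.03 (SD, n = 3 each). The nitrogen and air levels of the 2 sets thus stood within 3 points of each other, and the sets differed in the re-aerated level, which the rule fixed.

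**Figure D1:**
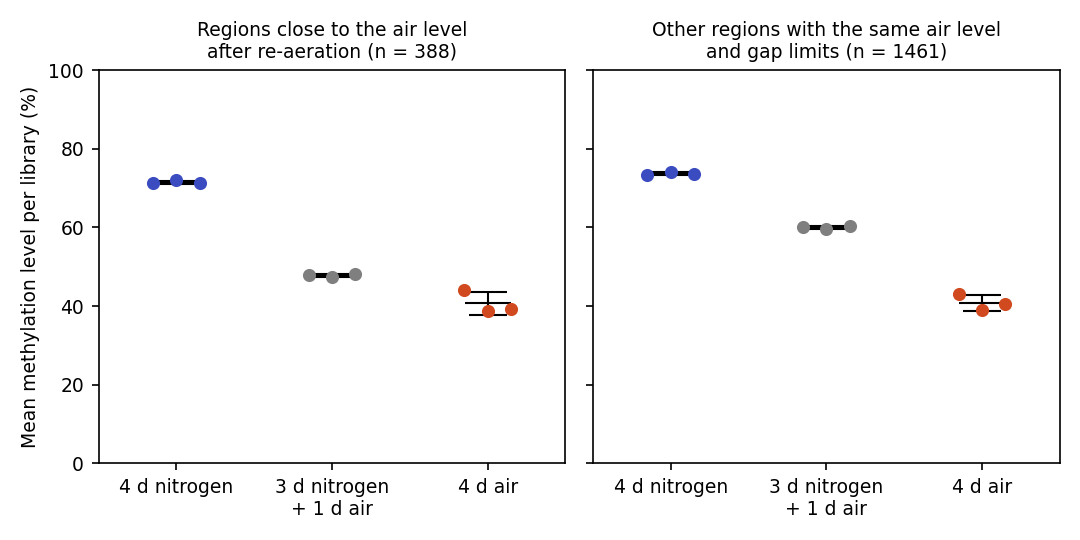
Mean methylation level (%) of each coleoptile library over the 388 returning regions (left) and the 1461 less-returned regions (right). Points are libraries, and bars give the group mean and SD; the re-aeration libraries sit at 47.4% to 48.2% on the left and at 59.7% to 60.5% on the right.

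Air library 1 stood above the other air libraries. It was the highest of the 3 air libraries in 210 of the 387 returning regions with 10 or more reads in every library (54.3%), and in 642 of 1459 less-returned regions. No nitrogen or re-aeration library was highest in more than 38.0% of the returning regions. Chosen without air library 1, the set held 350 regions, of which 278 were among the 388. The median nitrogen minus air gap was 29.8 points over the 388 regions and 29.8 points over the 350 regions chosen without that library. Both sets passed the same limits, so these medians do not show that air library 1 leaves the gap unchanged.

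The gap between nitrogen and air in single returning regions lay between 10.1 and 61.3 points, the median being 29.8 and the quartiles 23.4 and 37.5. The re-aerated level stood 7.26 points above the air level in the median region, the quartiles being 4.31 and 10.2. It was below the air level in 18 of the 388 regions (4.64%) and within 5 points of it, in either direction, in 120 (30.9%). The mean re-aerated level was no higher than the highest air library in 197 returning regions (50.8%) and in 69 less-returned regions (4.72%). Most returning regions therefore still stood above air in the group means, and about as many lay within the reach of the highest air library as beyond it. That highest library was air library 1 in 54.3% of the returning regions with enough reads in every library. A high air library also helps a region into the set, so the 50.8% is a description only. The median percent of the gap closed was 74.9% (quartiles 68.99% and 83.5%), with a highest value of 155.5%, where a value above 100% means a level below air.

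**Figure D2:**
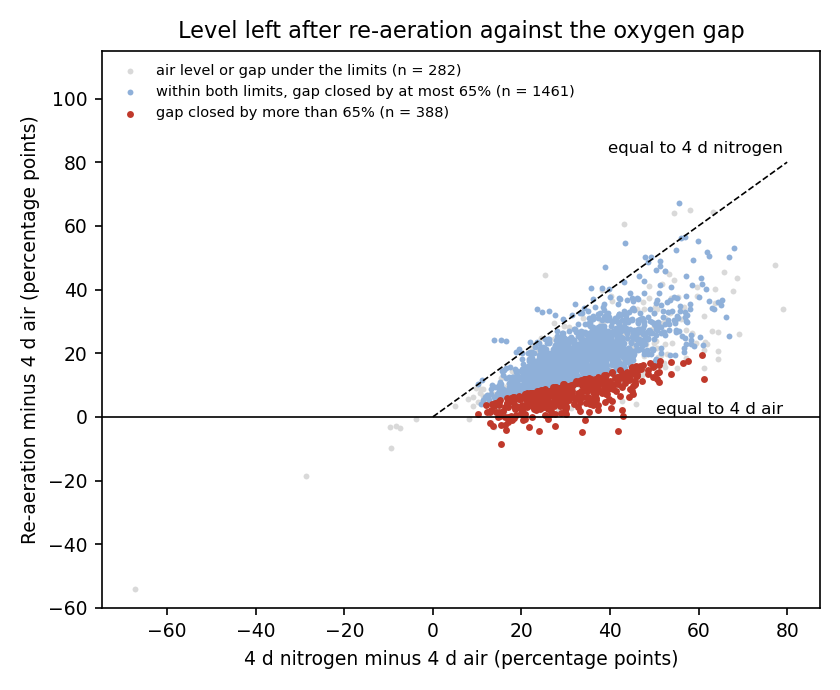
Nitrogen minus air (x axis) against re-aeration minus air (y axis), both in percentage points of the group means at 4 d, for the 2131 regions of the oxygen table. Red points are the 388 returning regions, which lie between 8.49 points below and 19.3 points above the air level; the dashed line marks no difference from nitrogen.

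The order of single libraries was also counted region by region. In 299 returning regions the 3 re-aeration libraries all stood below the 3 nitrogen libraries and overlapped the air libraries. Over the oxygen table this was so in 567 of 2131 regions. In 58 returning regions they stood below nitrogen and above air, against 882 of the 2131. In 31 they overlapped both groups, against 204 of the 2131, which is a similar share. The re-aeration libraries overlapped the air libraries in 85.1% of returning regions, against 25.4% of less-returned regions. The rule had already fixed the direction of these shares.

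A quasi-binomial model, fitted to the methylated and total reads of all 2131 regions with Benjamini-Hochberg adjustment, gives the counts that go with these values. Because the rule used the same contrasts, these counts describe the regions and support nothing further. The model called 385 returning regions higher in nitrogen than in air, where 98.6% of the whole table was called. It called 273 lower after re-aeration than in nitrogen, where 39.2% of the table was called. It called 8 higher after re-aeration than in air, where 40.9% of the table was called, and the other 380 that missed the threshold are not shown to equal air. All 3 nitrogen libraries stood above all 3 air libraries in 378 returning regions, against 97.7% of the table. All 3 re-aeration libraries stood below the nitrogen libraries in 357, against 68.0% of the table, and above the air libraries in 58, against 63.5% of the table. The 273 calls became 139, 106 and 121 without nitrogen library 1, 2 or 3, and 113, 94 and 107 without re-aeration library 1, 2 or 3. The 8 calls above air became 4, 0 and 1 without re-aeration library 1, 2 or 3, and 14, 0 and 6 without air library 1, 2 or 3.

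The 8 returning regions called above air had 65.1% to 68.5% of the gap closed, below the lower quartile of 68.99%, and gaps of 34.4 to 49.9 points. Other regions below that quartile were not called, such as chromosome 2, positions 20516231 to 20516239, with 68.2% closed. On chromosome 10, the region from 20928074 to 20928106 had 91.5%, 93.8% and 96.7% in nitrogen, 68.1%, 66.2% and 74.1% after re-aeration, and 61.3%, 57.5% and 53.5% in air (114 to 215 reads). Positions 2202343 to 2202362 of chromosome 6 had 76.3%, 75.3% and 78.8% in nitrogen, 46.3%, 46.1% and 47.7% after re-aeration, and 28.3%, 30.6% and 39.6% in air (112 to 145 reads). Positions 25671876 to 25671925 of chromosome 7 had 72.8%, 62.9% and 72.9% in nitrogen, 42.9%, 36.3% and 38.1% after re-aeration, and 24.3%, 27.5% and 21.3% in air (66 to 154 reads). In each of these the 3 groups stood fully apart, with the re-aerated level between the other 2. These 8 were picked out after their values were seen.

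The 3 returning regions not called higher in nitrogen than in air were likewise picked out after their values were seen, and their SD between nitrogen libraries was 10.3 to 18.6 points. On chromosome 6, the region from 5092835 to 5092838, 4 bp long, had 83.9%, 87.8% and 54.4% in nitrogen, 54.1%, 59.9% and 48.1% after re-aeration, and 88.3%, 36.1% and 15.4% in air (22 to 50 reads). Air library 1 stood at the level of nitrogen there and the other air libraries far below it. The region on chromosome 3 from 31906907 to 31906914 had 70.3%, 44.3% and 80.4% in nitrogen against 22.04%, 53.2% and 18.3% in air. The region on chromosome 11 from 21541148 to 21541220 had 55.1%, 41.4% and 61.5% in nitrogen against 40.1%, 40.1% and 33.3% in air.

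The largest gaps were found in very short regions with few reads. Among returning regions with 10 or more reads in all 9 libraries, the 8 largest gaps lay between 51.1 and 60.7 points, in regions of 3 to 19 bp with 215 to 626 reads summed over the libraries. On chromosome 2, the region from 20516231 to 20516239 had 99.8%, 87.0% and 73.3% in nitrogen, 56.1%, 51.3% and 28.5% after re-aeration, and 58.5%, 15.4% and 4.16% in air (16 to 49 reads). The nitrogen libraries stood clear of the rest, whereas the re-aeration and air libraries overlapped, with 1 air library far above the others. On chromosome 1, the region from 7180989 to 7181007 had 83.2%, 85.9% and 80.2% in nitrogen, 46.96%, 39.9% and 42.1% after re-aeration, and 29.7%, 8.32% and 38.2% in air (25 to 72 reads). On the same chromosome, positions 28884339 to 28884347 had 79.8%, 81.5% and 79.5% in nitrogen, 34.4%, 40.2% and 45.2% after re-aeration, and 21.4%, 34.8% and 23.3% in air (28 to 107 reads). In both of these the nitrogen libraries lay within 6 points of each other and the air libraries were spread more widely.

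The others of the 8 were chromosome 3, positions 23532974 to 23532976; chromosome 2, positions 32341923 to 32341932; chromosome 9, positions 20804940 to 20804949; chromosome 1, positions 22462255 to 22462262; and chromosome 7, positions 9106485 to 9106492. In all 8 the nitrogen libraries stood above the air libraries, and in 7 they stood above the re-aeration libraries. The exception, on chromosome 9, had 27.7%, 49.9% and 43.7% after re-aeration against 88.7%, 42.2% and 91.1% in nitrogen (18 to 32 reads). The re-aeration and air libraries overlapped in 7 of the 8. A returning region on chromosome 12 from 27332630 to 27332636 had a larger gap still, of 61.3 points, but 1 of its nitrogen libraries held 5 reads and was left out of the mean (n = 2 in nitrogen).

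The 5 regions with the most reads had smaller gaps, of 13.2 to 26.05 points, and an SD of at most 6.06 points in each group. On chromosome 6, the region from 6200791 to 6200974 had 67.2%, 65.3% and 69.8% in nitrogen, 51.0%, 46.1% and 46.2% after re-aeration, and 40.9%, 42.7% and 40.6% in air (639 to 1006 reads). Here the re-aeration libraries stood clear of both other groups. On chromosome 2, the region from 4874711 to 4874901, at 191 bp the longest, had 71.4%, 71.0% and 73.2% in nitrogen, 58.3%, 56.5% and 56.2% after re-aeration, and 58.0%, 54.0% and 58.2% in air (607 to 947 reads). The re-aerated mean of 57.0% ± 1.10 and the air mean of 56.7% ± 2.38 (SD, n = 3 each) differed by less than the spread between libraries. On chromosome 9, the region from 21295563 to 21295699 had 51.0%, 50.7% and 53.7% in nitrogen, 37.5%, 40.6% and 40.2% after re-aeration, and 41.9%, 31.9% and 31.3% in air (460 to 934 reads).

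Positions 9288653 to 9288805 of chromosome 8 had 62.5%, 58.3% and 63.5% in nitrogen, 45.3%, 52.7% and 53.1% after re-aeration, and 48.005%, 54.2% and 42.5% in air (502 to 808 reads). Its re-aeration libraries lay inside the range of its air libraries. The other long regions were chromosome 5, positions 6695328 to 6695477, and chromosome 2, positions 15861971 to 15862119. The first had the smallest gap of all returning regions, 10.1 points, with 47.7%, 47.5% and 46.8% in nitrogen, 37.9%, 38.2% and 38.6% after re-aeration, and 38.9%, 34.5% and 38.2% in air. The second had 71.2%, 73.0% and 71.0% in nitrogen, 56.4%, 59.6% and 61.1% after re-aeration, and 56.5%, 53.6% and 52.4% in air.

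**Figure D3:**
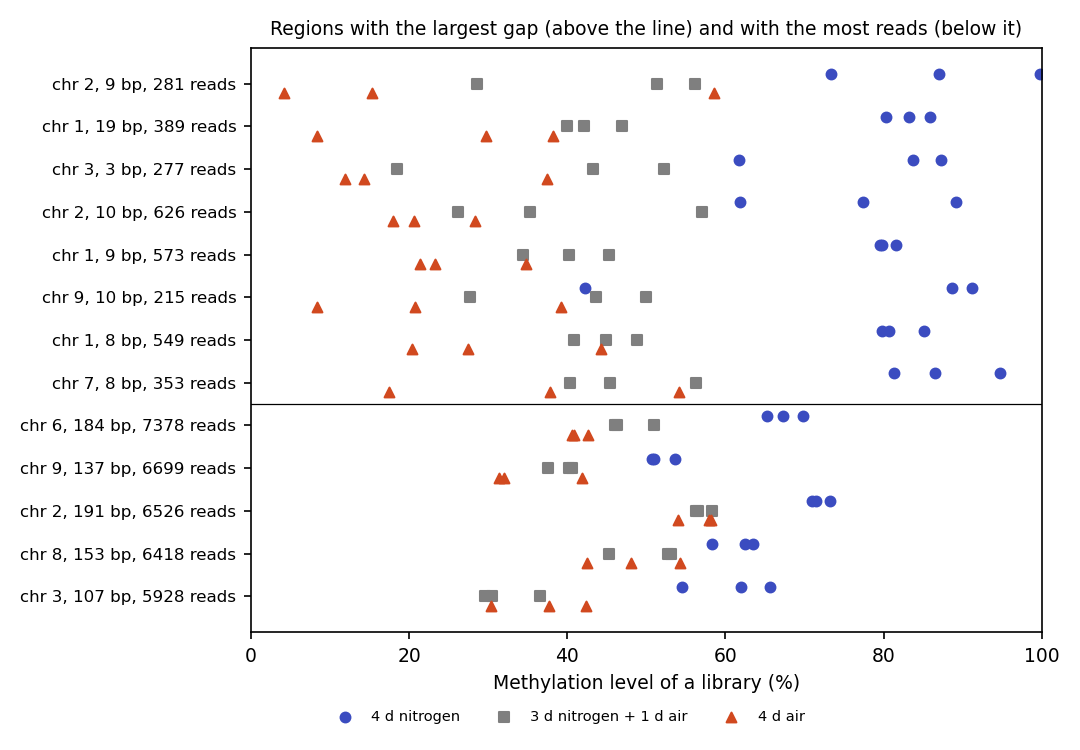
Methylation level (%) of each of the 9 coleoptile libraries in the 8 returning regions with the largest gap (above the line) and the 5 with the most reads (below it), labelled by chromosome, length and summed reads. The nitrogen libraries (circles) lie to the right throughout except for 1 library at 42.2% on chromosome 9, and the SD between air libraries reaches 28.7 points in the upper regions and 6.06 points in the lower ones.

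In the 5 regions with the largest percent of the gap closed, the re-aerated mean stood 2.53 to 8.49 points below the air mean. On chromosome 9, the region from 8886979 to 8887008 had 82.4%, 89.2% and 82.1% in nitrogen, 58.6%, 66.5% and 57.1% after re-aeration, and 78.3%, 64.99% and 64.4% in air (107 to 197 reads). Positions 28884722 to 28884828 of chromosome 3, which is also among those with the most reads, had 54.5%, 62.01% and 65.6% in nitrogen, 36.5%, 29.6% and 30.5% after re-aeration, and 42.4%, 30.3% and 37.6% in air (477 to 789 reads). In all 5 the re-aeration and air libraries overlapped. All 3 re-aeration libraries stood below all 3 air libraries in 0 of the 388 returning regions, against 6 of 2131 in the oxygen table. That order was thus rare in the whole table as well. The other 3 were chromosome 1, positions 30761827 to 30761883; chromosome 8, positions 21685369 to 21685493; and chromosome 7, positions 19354169 to 19354203, with 125.2%, 120.3% and 116.4% of the gap closed. Their gaps were 16.5, 13.5 and 15.5 points, near the lower end of the set, where a given difference in points is a larger percent of the gap.

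At the edges of the rule, the region just inside the limit on gap closed lay on chromosome 7 from 1555525 to 1555653, with 65.05% closed, and the region just outside it on chromosome 12 from 5205349 to 5205358, with 64.96% closed. The lowest air level inside was 20.2% ± 8.20 (SD, n = 3), on chromosome 4 from 22402892 to 22402949, and the nearest outside among regions that met both other limits was 19.9% ± 6.62 (SD, n = 3), on chromosome 2 from 22402810 to 22402901. The smallest gap inside was 10.1 points, given above for chromosome 5, and the nearest outside among regions that met both other limits was 8.13 points, on chromosome 8 from 22174299 to 22174392. The difference across the edge in air level was smaller than the SD between libraries on either side of it.

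Because a level that happens to be low in the re-aeration libraries or high in the air libraries helps a region into the set, the choice was repeated with each library left out in turn, and the level was then read in the library that had played no part. Regions chosen without re-aeration library 1, 2 or 3 stood at 53.4%, 52.1% and 53.8% in the left-out library. The 2 re-aeration libraries used for the choice stood at 47.8%, 47.5% and 47.8% in those same regions. Over all regions within the air and gap limits, re-aeration libraries 1, 2 and 3 differed from the other 2 by 0.0714, -0.623 and 0.551 points. The left-out re-aeration library therefore stood 4.64 to 6.05 points higher than the libraries that had been used.

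Read with the left-out re-aeration library, the chosen regions had closed a median of 60.05%, 64.4% and 60.1% of the gap, against 74.7% to 76.1% with the libraries used. The regions within the same limits that were not chosen had closed 45.2%, 45.7% and 43.5%, read in the same left-out library. The left-out library alone placed 44.1%, 48.8% and 42.9% of the chosen regions over the 65% limit, against 22.9%, 24.1% and 22.2% of those not chosen. The chosen regions thus stood closer to air than the others in a library that had not been used, in each of the 3 cases, and less close than in the libraries that chose them. These libraries share nitrogen and air levels with the choice, so the values are a description and were not tested.

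With an air library left out, the chosen regions stood at 39.8%, 36.2% and 36.7% in air library 1, 2 and 3, against 41.2%, 43.5% and 42.98% in the air libraries used. Over all regions within the air and gap limits, air libraries 1, 2 and 3 differed from the other 2 by 2.78, -3.37 and -1.51 points. The median percent of the gap closed in the chosen regions, read with the left-out air library, was 73.02%, 62.7% and 65.4%. In the regions not chosen it was 46.2%, 40.8% and 42.5%. With a nitrogen library left out, the median in the chosen regions was 73.9%, 74.9% and 74.0%. The left-out nitrogen levels of 70.4%, 70.8% and 70.3% stood within 2.29 points of those used. The number of regions chosen was 387 to 396 without a nitrogen library, 432 to 462 without a re-aeration library and 350 to 478 without an air library, and 278 to 360 of them were among the 388.

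**Figure D4:**
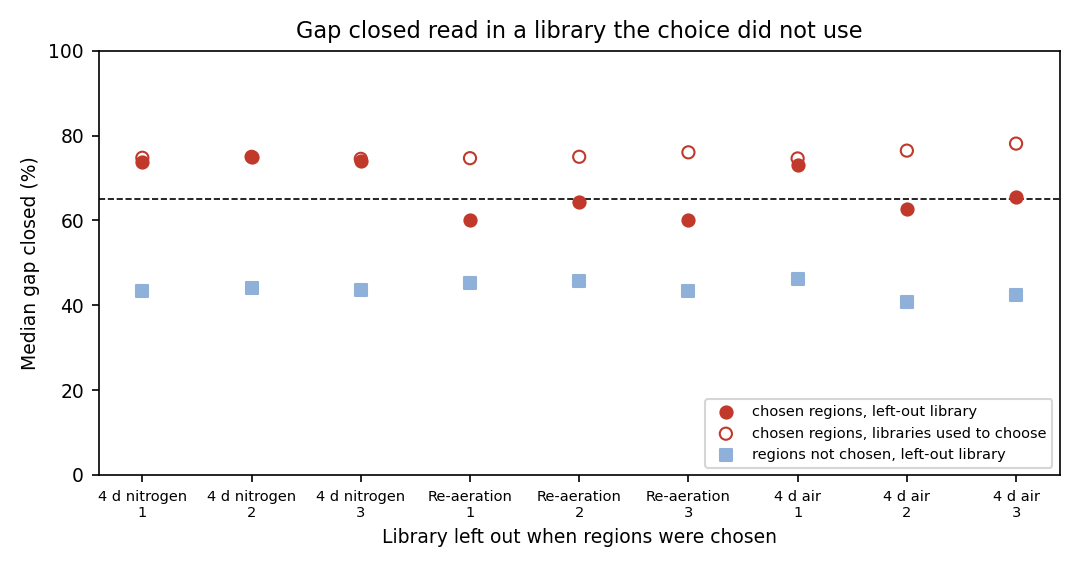
Median percent of the nitrogen to air gap closed when the regions were chosen without the library named on the x axis. Filled circles are the chosen regions read in that library, open circles the same regions in the libraries used, and squares the regions not chosen; the dashed line is the 65% limit. The re-aeration libraries give 60.05% to 64.4% for the chosen regions and 43.5% to 45.7% for the others.

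Returning regions were shorter than less-returned regions, with a median length of 31 bp (interquartile range 18 to 60 bp) against 42 bp (22 to 73 bp). Together they covered 16912 bp, which is 16.1% of the length of the oxygen table. Among all regions within the air and gap limits, returning regions made up 26.9% of those of 3 to 20 bp, 23.4% of those of 21 to 38 bp, 17.8% of those of 39 to 70 bp and 16.3% of those of 71 bp or more. The median percent of the gap closed over the same length classes was 51.9%, 50.8%, 49.2% and 45.5%. Reads followed the same order, with returning regions making up 24.7% of the regions with the fewest reads (203 to 924 summed over the 9 libraries) and 15.6% of those with the most (2651 to 18680). The part of length and read number in which regions entered the set was not tested.

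The share of returning regions lay between 17.9% and 23.5% over the classes of air level. Returning regions were 21.3% of those with an air level of 20% to 30%, 23.5% of those at 30% to 40%, 17.9% of those at 40% to 50% and 21.7% of those at 50% or more. Within the set, the 81 regions with an air level under 30% averaged 60.6% in nitrogen, 34.01% after re-aeration and 24.9% in air, and the 91 regions at 50% or more averaged 82.8%, 62.8% and 57.7%. The point distance left to air was 9.09 in the first class and 5.35 in the second, with gaps of 36.5 and 25.1 points, all as medians. In 15 returning regions the nitrogen level was 90% or more, and these averaged 92.8% in nitrogen, 66.8% after re-aeration and 58.3% in air.

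The median spread between libraries in a returning region was an SD of 4.91 points in nitrogen, 5.72 after re-aeration and 7.15 in air, against 4.62, 5.84 and 6.16 in less-returned regions. Total reads per region had library medians of 150 to 175 in nitrogen, 125 to 138 after re-aeration and 141.5 to 160.5 in air over the returning regions. Returning regions took 16.7% to 17.1% of the reads of the table in the nitrogen libraries, 16.1% to 16.4% in the re-aeration libraries and 16.8% to 17.1% in the air libraries. The re-aeration libraries thus held slightly fewer reads there, and the part of this in the levels was not tested. The column names do not say whether a read was counted once or once per cytosine, and in the second case there were fewer molecules than reads.

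Returning regions lay on all 12 chromosomes. They were most frequent among the regions within the limits on chromosome 10 (24 of 84, 28.6%), chromosome 7 (37 of 136, 27.2%) and chromosome 9 (32 of 121, 26.4%), and least frequent on chromosome 4 (22 of 174, 12.6%). Their mean levels were lowest on chromosome 9 in nitrogen and after re-aeration, at 65.03% and 43.3%, and on chromosome 10 in air, at 36.7%. Chromosome 5 had the highest means in nitrogen and in air, at 76.5% and 45.03%. The median percent of the gap closed over all regions within the limits varied less, between 46.1% on chromosome 4 and 52.1% on chromosome 10. These counts describe where the regions were, and no difference between chromosomes was tested.

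Returning regions rarely had a second region of the oxygen table close by. Of the 388, 15 (3.87%) had another region of the table within 1000 bp, against 103 of the 2131 (4.83%). For 4 of the 15, which form 2 pairs, such a neighbour was also a returning region. On chromosome 1, the regions from 16468213 to 16468235 and from 16468250 to 16468283, 14 bp apart, had 69.8% ± 7.08 and 55.5% ± 13.8 in nitrogen, 38.2% ± 18.8 and 36.3% ± 2.01 after re-aeration, and 32.9% ± 10.1 and 35.4% ± 1.83 in air (SD, n = 3 each). On chromosome 7, the regions from 29267123 to 29267247 and from 29267354 to 29267365, 106 bp apart, had 61.0% ± 1.78 and 62.7% ± 22.6 in nitrogen, 39.6% ± 3.36 and 32.6% ± 20.8 after re-aeration, and 32.8% ± 3.10 and 22.6% ± 3.40 in air (SD, n = 3 each). The first pair had closed 85.7% and 95.2% of their gaps, and the second pair 75.97% and 75.04%.

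The authors' re-aeration table lists 902 regions for 4 d nitrogen against re-aeration. It overlapped 6 of the 388 returning regions by 1 bp or more (1.55%), at 6 of its own regions (0.665%), and 10 of the 2131 regions of the oxygen table (0.469%). All 6 stood lower after re-aeration than in nitrogen in that table as well, by 18.6 to 38.5 points. The region on chromosome 3 from 4168410 to 4168469 has the same limits in both tables, with 86.5% ± 3.93 in nitrogen, 61.9% ± 6.52 after re-aeration and 59.9% ± 2.42 in air (SD, n = 3 each). On chromosome 11, the returning region from 3047293 to 3047313 had 88.1% ± 1.26, 57.1% ± 2.94 and 51.9% ± 6.78 in the same order (SD, n = 3 each). The longer version in the re-aeration table, ending at 3047326, had 85.3% ± 1.41, 55.3% ± 4.56 and 49.5% ± 5.56.

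The other 4 were chromosome 10, positions 17437081 to 17437102; chromosome 5, positions 16559452 to 16559471; chromosome 8, positions 21153348 to 21153456; and chromosome 9, positions 21081483 to 21081595. With the limits of the re-aeration table they had closed 103.9%, 85.6%, 118.3% and 87.8% of the gap, against 97.1%, 86.8%, 104.4% and 84.2% with those of the oxygen table. On chromosome 9, where the tables share 17 bp, the levels differed between the tables: 75.6% against 64.3% in nitrogen, 56.6% against 40.7% after re-aeration and 54.0% against 36.2% in air, with the re-aeration table given before the oxygen table. The same libraries stand behind both tables, so this is a second reading of the same DNA and no replication.

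None of the 388 returning regions overlapped a region of the authors' dry seed table, which lists 5908 regions for the dry seed against 24 h of germination, although 19 of the 2131 regions of the oxygen table did. Of the returning regions, 23 (5.93%) had a dry seed table region within 500 bp, against 117 of the 2131 (5.49%), and 24 dry seed table regions were involved. The embryo libraries in these 24 regions were not used by the rule. They averaged 28.3% ± 0.268 after 24 h in nitrogen, 24.95% ± 1.72 after 24 h in air and 65.2% ± 1.88 in the dry seed (SD, n = 3 each). The level was thus lower by more than the spread after 24 h in either gas, as it was over the whole dry seed table, which the authors picked for that difference.

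The quasi-binomial model, with Benjamini-Hochberg adjustment over the dry seed table, called 24 of the 24 neighbouring regions lower after 24 h in nitrogen than in the dry seed, where 96.9% of the table was called. It called 23 of 24 lower after 24 h in air, where 99.1% of the table was called. Between the gases at 24 h it called 0 of 24, where 0.0170% of the table was called higher in nitrogen. At an unadjusted p under 0.05 there was 1 region, and limma on the levels also called 0. The median difference of nitrogen minus air at 24 h was 3.46 points in these regions, and a p that misses the threshold does not show equal levels.

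The neighbouring dry seed regions and the returning regions stood in a different order in coleoptiles. In the returning regions the rule had fixed nitrogen above both other groups, so that side of the comparison is a description only. The 24 neighbouring regions averaged 28.2% ± 2.72 in 4 d nitrogen, 51.6% ± 0.963 after re-aeration and 20.7% ± 1.09 in 4 d air (SD, n = 3 each), so that re-aeration was the highest of the 3. All 24 stood higher after re-aeration than in 4 d nitrogen, and the share over the whole dry seed table is not given here. The 23 returning regions beside these 24 had medians of 81.2% in nitrogen, 51.2% after re-aeration and 42.1% in air. The same order was found over the whole dry seed table, at 29.3% ± 0.684, 58.1% ± 0.728 and 23.2% ± 0.426 (SD, n = 3 each), and is not particular to the neighbours of returning regions.

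The closest such pair lay on chromosome 7, with 5 bp between them. The returning region from 9106485 to 9106492 stood at 87.5% ± 6.75 in nitrogen, 47.3% ± 8.11 after re-aeration and 36.4% ± 18.3 in air (SD, n = 3 each). The dry seed region from 9106392 to 9106479 stood at 28.5% ± 13.0, 60.5% ± 9.55 and 22.4% ± 12.4 in the same groups and at 72.8% ± 8.37 in the dry seed (SD, n = 3 each). Re-aerated coleoptiles thus stood below nitrogen in the first stretch, as the rule required, and above it in the second. Both differences were larger than the spread between libraries. At 30 bp, on chromosome 5, the returning region from 18459498 to 18459509 stood at 81.2% ± 8.64, 54.9% ± 8.84 and 44.5% ± 4.73, and the dry seed region from 18459540 to 18459649 at 47.7% ± 1.36, 61.5% ± 9.82 and 32.5% ± 5.64 in the same groups (SD, n = 3 each). At 40 bp, on chromosome 3, the returning region from 26146577 to 26146590 stood at 91.3% ± 5.95, 66.0% ± 10.5 and 62.6% ± 12.9, and the dry seed region from 26146478 to 26146536 at 17.6% ± 6.13, 46.9% ± 3.95 and 8.73% ± 2.98 (SD, n = 3 each).

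In 2 of the next 3 pairs by distance, re-aeration and nitrogen differed in the dry seed region by less than the spread between libraries. At 50 bp, on chromosome 10, the dry seed region from 15108470 to 15108507 stood at 47.7% ± 15.4 after re-aeration against 16.4% ± 3.59 in nitrogen (SD, n = 3 each). At 69 bp, on chromosome 8, the dry seed region from 18379753 to 18379820 stood at 45.9% ± 25.7 after re-aeration against 39.5% ± 3.26 in nitrogen (SD, n = 3 each), a difference smaller than the spread between libraries. At 86 bp, on another stretch of chromosome 5, the dry seed region from 22127381 to 22127447 stood at 57.8% ± 6.56 after re-aeration against 52.7% ± 3.82 in nitrogen (SD, n = 3 each), again within that spread. The returning regions beside these 3 stood at 21.99%, 51.2% and 59.2% after re-aeration against 40.6%, 81.3% and 85.9% in nitrogen.

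**Figure D5:**
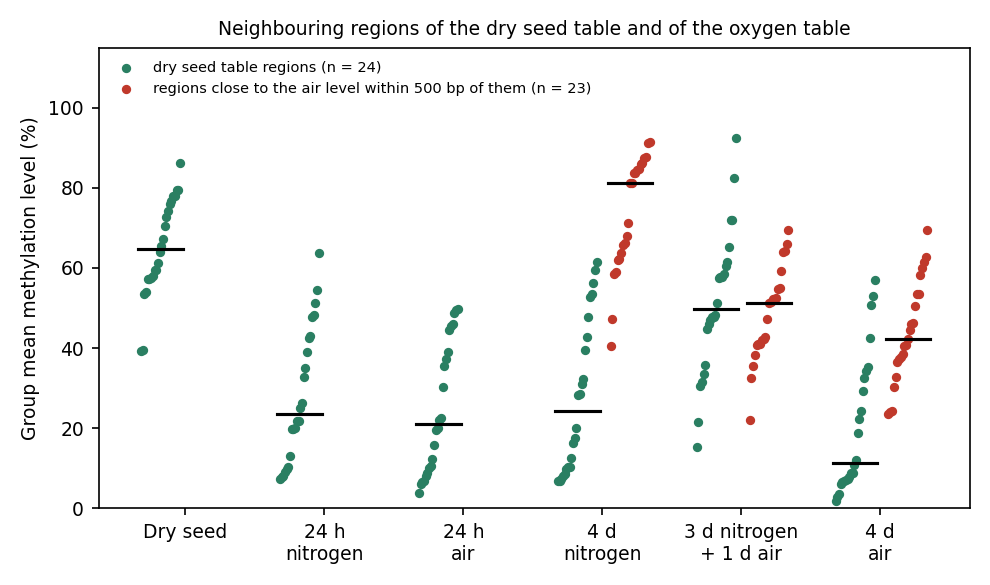
Group mean methylation level (%) of the 24 dry seed table regions within 500 bp of a returning region (green) and of the 23 returning regions beside them (red), each point a region and each bar a median. The dry seed table holds all 6 groups and the oxygen table the coleoptile groups; the green median is 49.7% after re-aeration and 24.2% in 4 d nitrogen, the red median 51.2% and 81.2%.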

How the data were processed

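Per the labels' protocols, 600 ng of DNA and 0.5% lambda DNA went into each MethylC-seq library. The authors deposited 3 tables of differing regions, with a total read count per region and library, a methylated value and a percent. The deposited methylated values were treated as estimated counts, since each is a whole number times a library factor of 0.9978 to 0.9982 in the oxygen table, with 100% whole to within 0.01 after division; they were rounded. The deposited percent is the methylated value over the total count. No aligner, region caller or genome build is named in the sources used here. All columns of per-library values were used, 0 being left over.

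The members, lists and tests were chosen with earlier results of these data known. A library entered a region only with 10 or more reads there. The quasi-binomial model (Python 3.11.15, numpy 2.4.6, scipy 1.17.1) had a term per group, a dispersion of at least 1 shared by all groups of a table, and 2 or more libraries per compared group. A call needed 10 points or more and, after Benjamini-Hochberg adjustment over the whole table, a p under 0.05. Counts were also simulated with 100 regions shifted by 20 points and 100 by 30 points. For nitrogen against air 32 and 62 were recovered, and for re-aeration against nitrogen 21 and 58. Re-aeration against air gave 23 and 46, and each of these comparisons had 0 false calls among 1931. With counts simulated for the dry seed regions, 24 h nitrogen against 24 h air gave 12 and 44, with 2 false calls among 5708. Against the dry seed, 24 h air gave 26 and 66 and 24 h nitrogen 23 and 62, with 4 false calls each. Most simulated regions were unshifted, whereas 98.6% of the oxygen table was called higher in nitrogen than in air. These rates may therefore not hold for the data. limma 3.58.1 on the percents was an alternative. Total reads over the returning regions were 64467 to 91071 per library. Region length counts both end positions. Regions were named by rank in gap, gap closed, reads and length, by the edges of the rule, and by overlap or nearness to other regions. Dry seed regions within 500 bp were used because none overlapped, and the 6 closest pairs are given. For nearness to another returning region the rule asked for 3 pairs, and 2 exist.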

Additional observations from a re-analysis of the deposited data

How the results depend on the processing

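Read minimums of 5 and 20 gave 388 and 385 returning regions, levels from summed reads 365, and limits of 50% and 80% on the gap closed 876 and 132. Leaving out 1 library gave 350 to 478 regions. Over these re-chosen sets the median gap was 27.6 to 30.5 points and the median distance to air 5.81 to 7.44 points. The median gap closed was 74.5% to 78.1%. Each set had passed the same limits in the libraries used to choose it, so these medians cannot show that the values are stable. Left-out libraries stood at 70.3% to 70.8% in nitrogen, 52.1% to 53.8% after re-aeration and 36.2% to 39.8% in air, against 71.5%, 47.8% and 40.7% with all libraries. The count of 385 returning regions called higher in nitrogen than in air became 355 to 372 without 1 library and 370 with the replicate block. The count of 273 called lower after re-aeration than in nitrogen became 94 to 139 without 1 library, 149 with the block, 188 when only the compared libraries set the spread and 351 by limma. The 8 calls above air became 0 to 14 without 1 library, 0 with the block, 0 when only the compared libraries set the spread, 17 by limma and 14 with no minimum difference. The cause of these shifts was not tested, and the fits that leave 1 library out also had fewer libraries. The deviations of same-numbered libraries correlated at -0.00507 to 0.0476. These values cannot show whether such libraries shared a culture, a harvest or a batch.

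No returning region overlapped the dry seed table, so its planned fits had no region to count; within 500 bp, 23 returning regions and 24 dry seed regions were found, with 23 called lower in air and 24 in nitrogen. Over the alternatives added after seeing the data, these were 22 to 24 in both gases, and 0 between gases each time, the block included. A p that misses the threshold, at these read depths, does not show equal levels.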
